A study of Mus musculus with 29 samples.

Results

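CpG sites close to the starts of genes, and read in every library, were followed here in the DNA of mouse pancreatic islets. A CpG is a cytosine followed by a guanine, the place where mammalian DNA carries most of its methylation. A CpG belonged to the set if at least 1 read covered it in all 15 methylation libraries and it lay within 1 kb of a gene start. The gene start was the 5′ end of the gene in the deposited gene table (build mm10), and the reads of both strands of a CpG were added. Regions on chromosomes 2, 7 and 9 with 1590 of the 15072 CpGs read in all libraries were left out. The rule kept 3897 of the 2612080 CpGs listed in any library, or 0.149%, around 187 genes. They were chosen by read coverage and position, so their coverage is not a result, while their methylation levels were not used in the choice.

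The islets came from wild-type male C57BL/6 mice, 8 weeks (8 to 10 weeks in another label) or 52 weeks of age, called young and old below. For 1 week the mice ate a standard diet (SD, 13.1% of kcal from fat) or a high-fat diet (HFD, 41%). Methylation libraries of selected genomic regions numbered 4 for young SD, 4 for young HFD, 4 for old SD and 3 for old HFD. RNA libraries of the same 4 kinds of islets numbered 3 per diet in young and 4 per diet in old mice. Islets hold several endocrine cell types together with vessels and other cells, so each methylation level is an average over cell types, and the DNA libraries carry no marker that shows their makeup.

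CpG methylation is copied onto the new strand at each cell division. Starts of housekeeping and cell division genes usually lie in CpG islands, stretches rich in CpGs that stay free of methylation, whereas gene bodies, repeats and silent gene copies are mostly methylated. The edges of an island, its shores, are where the level rises from low to high. Bisulfite sequencing reads methylated cytosine as C and unmethylated cytosine as T, and does not separate methylcytosine from hydroxymethylcytosine.

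Promoter windows of RefSeq (build GRCm38.p6, 250 bases before to 50 after the start) could be matched to 51 of the 187 genes. 7 of them are printed 5′ to 3′ on the gene's strand, as examples of nearly unmethylated and of strongly methylated starts, picked after their levels were seen. Capitals mark the CpGs that were read in every library. The first 4 belong to cell division genes with nearly unmethylated starts. They are Plk1, a mitotic kinase (chr7:122159185-122159484, plus strand), Ccnb2, a mitotic cyclin (chr9:70421505-70421804, minus strand), Cdk1, the kinase of entry into mitosis (chr10:69352863-69353162, minus strand), and Ttk, a kinase of the spindle checkpoint (chr9:83834439-83834738, plus strand).
Plk1: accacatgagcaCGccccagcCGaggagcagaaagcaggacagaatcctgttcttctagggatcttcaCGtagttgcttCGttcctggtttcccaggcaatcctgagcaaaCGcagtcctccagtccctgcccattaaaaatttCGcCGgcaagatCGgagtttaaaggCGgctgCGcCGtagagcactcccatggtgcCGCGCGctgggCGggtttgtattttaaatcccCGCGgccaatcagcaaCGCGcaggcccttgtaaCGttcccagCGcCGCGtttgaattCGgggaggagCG
Ccnb2: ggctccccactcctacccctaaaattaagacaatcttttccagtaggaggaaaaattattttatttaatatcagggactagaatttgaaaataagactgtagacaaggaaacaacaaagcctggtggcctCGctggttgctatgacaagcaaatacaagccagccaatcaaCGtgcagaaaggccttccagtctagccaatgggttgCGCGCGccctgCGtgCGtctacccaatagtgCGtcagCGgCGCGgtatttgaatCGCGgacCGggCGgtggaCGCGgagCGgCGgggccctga
Cdk1: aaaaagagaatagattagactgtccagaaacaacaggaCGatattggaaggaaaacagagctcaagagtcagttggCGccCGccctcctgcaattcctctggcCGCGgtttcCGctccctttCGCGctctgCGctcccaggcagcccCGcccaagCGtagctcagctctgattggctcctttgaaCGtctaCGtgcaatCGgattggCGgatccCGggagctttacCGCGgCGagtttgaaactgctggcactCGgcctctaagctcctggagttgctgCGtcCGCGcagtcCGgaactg
Ttk: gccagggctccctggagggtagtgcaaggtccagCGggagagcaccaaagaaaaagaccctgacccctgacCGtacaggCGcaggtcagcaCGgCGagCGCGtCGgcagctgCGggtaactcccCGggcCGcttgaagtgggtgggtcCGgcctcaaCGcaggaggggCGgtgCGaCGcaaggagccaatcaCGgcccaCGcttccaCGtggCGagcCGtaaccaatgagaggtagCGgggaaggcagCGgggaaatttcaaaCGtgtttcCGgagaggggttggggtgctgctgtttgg
The other 3 belong to genes with strongly methylated starts. They are Tnnc2, the fast skeletal muscle troponin C (chr2:164779685-164779984, minus strand), Cdkn1a, the cell cycle inhibitor p21 (chr17:29090729-29091028, plus strand), and Il1b, an inflammatory cytokine (chr2:129371090-129371389, minus strand).
Tnnc2: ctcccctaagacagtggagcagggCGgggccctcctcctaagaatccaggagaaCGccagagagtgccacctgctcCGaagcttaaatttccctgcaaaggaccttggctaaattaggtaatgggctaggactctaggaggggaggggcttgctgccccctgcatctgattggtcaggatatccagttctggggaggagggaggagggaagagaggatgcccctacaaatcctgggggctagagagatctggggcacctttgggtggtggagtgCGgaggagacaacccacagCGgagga
Cdkn1a: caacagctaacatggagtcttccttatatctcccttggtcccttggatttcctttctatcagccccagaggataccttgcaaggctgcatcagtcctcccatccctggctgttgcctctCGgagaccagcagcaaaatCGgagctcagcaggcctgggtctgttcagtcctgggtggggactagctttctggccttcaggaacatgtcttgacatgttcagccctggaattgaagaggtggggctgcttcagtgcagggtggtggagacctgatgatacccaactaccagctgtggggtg
Il1b: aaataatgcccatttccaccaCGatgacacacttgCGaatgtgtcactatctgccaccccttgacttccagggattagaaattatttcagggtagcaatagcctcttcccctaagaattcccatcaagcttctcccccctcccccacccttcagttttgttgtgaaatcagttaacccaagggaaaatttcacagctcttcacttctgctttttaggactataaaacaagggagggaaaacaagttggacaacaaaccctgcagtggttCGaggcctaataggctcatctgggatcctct
All 25 CpGs in the Plk1 window, 19 in that of Ccnb2, 24 in that of Cdk1 and 25 in that of Ttk were read in every library. Their pooled levels over all libraries were 0.294%, 0.382%, 0.306% and 0.562%, and no single CpG among them was above 5.75%. The Tnnc2, Cdkn1a and Il1b windows hold 5, 2 and 3 CpGs, with pooled levels of 75.4%, 85.3% and 81.0%.

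CpG content is given for all matched windows as a description. Windows were sorted by the level of all CpGs of the set within 1 kb of the start. Some windows, such as those of Amdhd1 and H2afj, hold no CpG that was read in every library. The 37 windows of starts under 15% had a median of 21 CpGs (3 to 42) and a median observed to expected CpG ratio of 0.869, where 1 is what the C and G content alone would give. The 7 windows of starts over 50% had a median of 3 CpGs (1 to 18) and a ratio of 0.202, and all 32851 RefSeq windows had 7 and 0.384. The ranges overlapped. Hist1h2bn and Hist1h2bb have 3 CpGs each in their windows and start levels of 0.562% and 0.612%, and Cep250 has 18 CpGs and a level of 79.1% over 4 CpGs, although none of the CpGs inside these 3 windows was read in every library. Some windows overlap, because genes that share a start region, such as Hmmr and Nudcd2, are counted separately. Letters of 3 known motifs were searched on both strands. CCAAT was found in 29 of the 37 low windows (78.4%) against 37.4% of all windows, and TTTGAA, the core of the CHR element of cell cycle genes, in 20 (54.1%) against 17.9%. CACGTG, the E-box that Myc and related factors bind, was found in 4 (10.8%) against 7.15%. In the 7 windows of starts over 50%, CCAAT was found in 1, TTTGAA in 2 and CACGTG in 0. The genes were chosen by coverage, so these shares describe which genes were covered and cannot be tied to the methylation level. Overlapping windows can count a shared motif more than once. The CpG inside the E-box was read in every library in the windows of Elovl4, Faf1, Ttk and Cdk7, and none of its 91, 101, 87 and 127 reads was methylated, which allows levels of up to 3.3%, 2.97%, 3.45% and 2.36%. Such limits cover counting error only, since copies of 1 molecule cannot be told from separate molecules here. A match of letters is a description of the sequence and shows no binding.

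Pooled over all its reads, a library had a level of 17.3 to 22.3% at gene starts, with a mean of 20.1% ± 1.39 (SD, n = 15). This mean hides opposite kinds of CpG. Over all libraries 2864 of the 3897 CpGs (73.5%) were under 10%, 302 (7.75%) were over 90%, and 731 lay between. Gene-body CpGs read in every library (6129 CpGs) had a level of 75.9% ± 0.767 (SD, n = 15), and intergenic ones (3456 CpGs) had 74.1% ± 1.02. Gene starts were lower than either in 15 of 15 libraries, by 55.8 and 54.0 percentage points (exact two-sided sign-flip permutation test, p = 6.10e-05 each, the smallest it can give).

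Values at the edges of the rule are given as description. CpGs within 1 kb that were read in 14 of the 15 libraries (489 CpGs) had a pooled level of 34.2%. CpGs of the set with a single read in their least covered library (854 CpGs) had 25.5%. In the last 100 bp inside the 1 kb limit 168 CpGs had 43.1%, and in the first 100 bp beyond it 154 CpGs had 44.3%.

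Genes fell into separate kinds by their annotation. The 2813 CpGs whose nearest start belonged to one of 58 protein-coding genes had a pooled level of 9.99%. The 428 CpGs at 66 processed pseudogenes, copies of spliced RNA put back into the genome, had 83.4%, and the 51 at 4 unprocessed pseudogenes had 83.6%. CpGs at 12 microRNA genes had 9.65%, and 1 of these genes, AC122428.1, lies in the start region of H2afx. CpGs at 5 lincRNA genes had 14.1% and at 7 antisense genes 27.4%. In all, 1111 of the 3897 CpGs lay within 1 kb of more than 1 gene start, and the 187 genes had 167 distinct sets of CpGs. Among the 97 sets with at least 10 reads in every library, 57 had a level of 24.6% or less and 40 had 58.3% or more, with none between Cdkn2c and Gnb3.

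**Figure D1:**
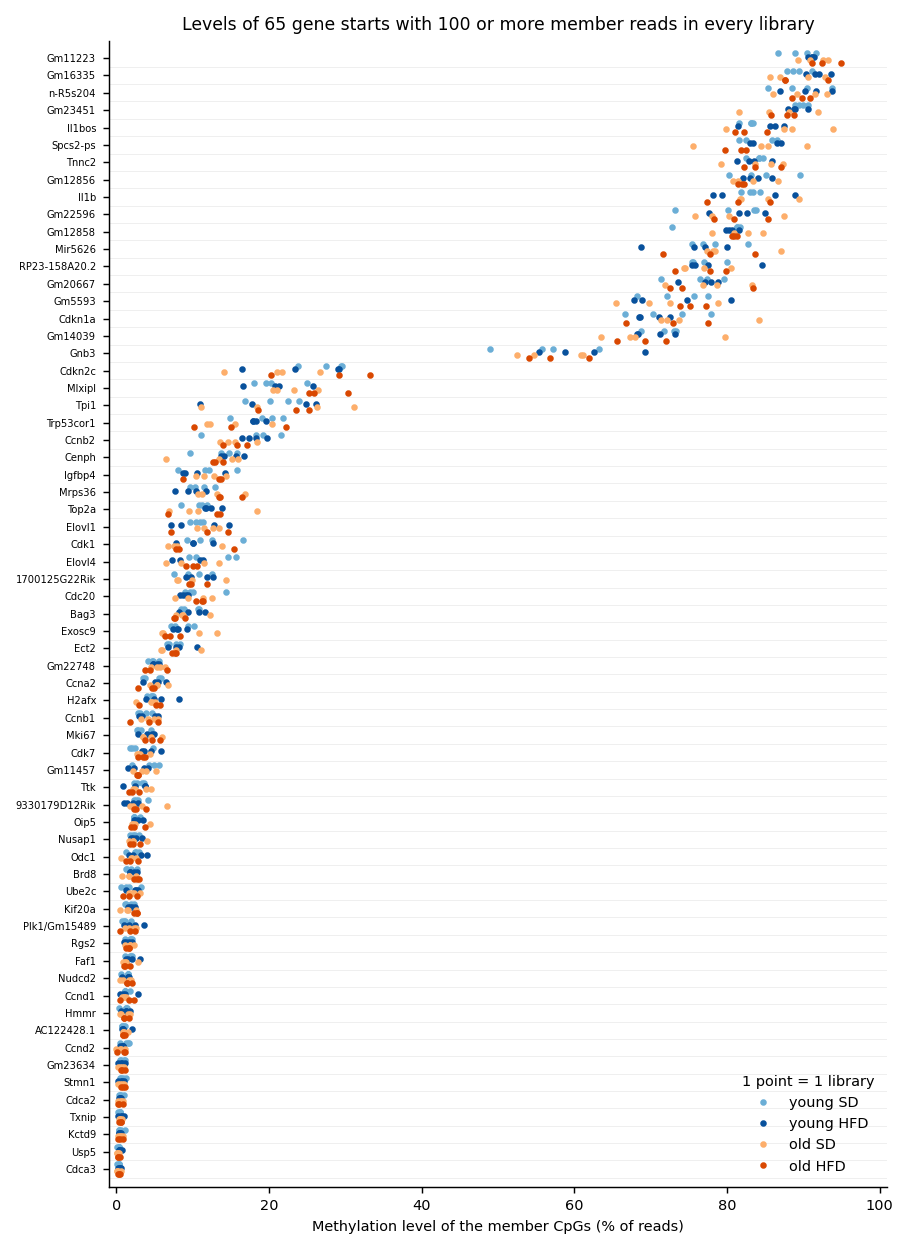
Methylation level (x axis, percent of reads) of 65 gene starts with at least 100 reads on their CpGs in every library (y axis), with 1 point per library coloured by age and diet. 47 of the starts drawn lie under 30% and 18 over 50%, and neighbouring genes such as Usp5 and Cdca3 share CpGs.

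Around protein-coding genes the level formed a trough at the start. CpGs within 250 bp of a start (1260 CpGs, 50 genes) had 2.29% ± 0.273 (SD, n = 15), and 97.5% of them were under 10%. From there to 500 bp downstream the level was 3.21% ± 0.568, and from 500 to 1000 bp downstream it was 11.8% ± 0.858. Upstream it rose faster, to 15.9% ± 1.16 from 250 to 500 bp and 39.5% ± 1.30 from 500 to 1000 bp. The plot of level against distance shows this trough in all 4 groups and none of comparable depth at pseudogenes.

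**Figure D2:**
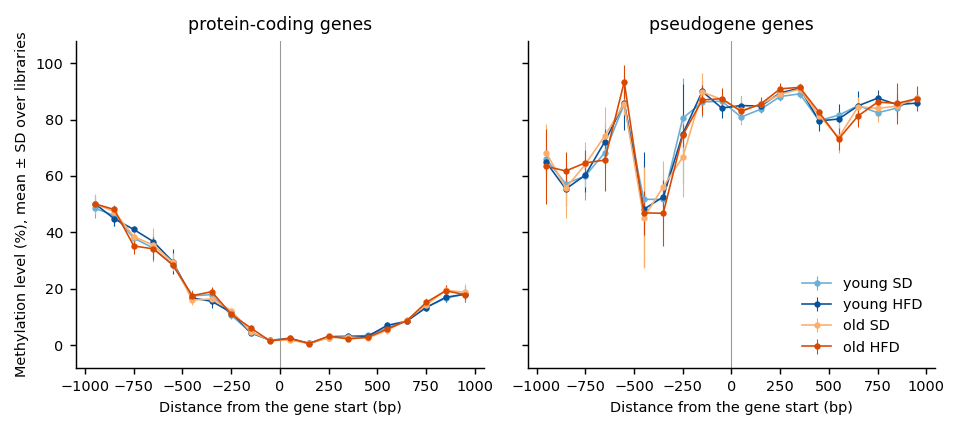
Methylation level (y axis, percent, mean ± SD over the libraries of a group) in bins of distance from the gene start (x axis, bp) for CpGs whose nearest start is that of a protein-coding gene (left) or a pseudogene (right). The 4 groups overlap in the trough of protein-coding genes, and pseudogenes are high on both sides of the start, with wide error bars upstream where few CpGs were read.

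The 48 deeply read starts under 30% (at least 100 reads in every library) each had at least 5 CpGs within 250 bp, and in 42 of them this core was under 1%, with a median of 0.342%. Some are known genes of cell division. Cdca3, which helps entry into mitosis, had a level of 0.311% over 93 CpGs, Cdca2, a chromatin protein of mitosis, 0.527% over 120 CpGs, and Stmn1, a regulator of microtubules, 0.713%. Hmmr, a spindle protein, had 1.13%, Plk1 1.76%, and Ube2c, which tags mitotic proteins for breakdown, 1.99%. Kif20a, a motor of cytokinesis, had 1.84%. These 7 starts stayed low on both sides. With the CpGs beyond 250 bp pooled on each side, the highest level was 6.99%, downstream of Hmmr. Single CpGs could be higher, since 87 of the 92 CpGs at Plk1 were under 10%.

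Among the cyclins, Ccnd1 and Ccnd2, which drive cells out of G1, had 1.22% and 0.845%. Ccnb1, a mitotic cyclin, had 4.1%, Ccna2, the cyclin of S phase, had 4.76% and Ccnb2 had 16.5%. The difference lay in the shores. Ccnb2 had 0.599% in its core but 39.8% upstream and 26.2% downstream of it, and Ccna2 had 0.244% in its core and 46.4% upstream. Cdk1 followed the same shape, with 0.273% in the core, 47.9% upstream and 17.9% downstream, and a level of 10.4% over 62 CpGs. Top2a, the topoisomerase that untangles chromosomes, had 0.193% in the core and 38.2% upstream. Cdc20, which starts anaphase, had 0.706% in its core and 16.9% downstream. Mki67, the proliferation marker Ki-67, had 4.05% over 93 CpGs with 0.289% in its core.

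Genes with other roles showed the same core. Mlxipl, the glucose-responsive transcription factor ChREBP, had 22.3% over 85 CpGs, made of 58.6% upstream, 0.361% in the core and 1.43% downstream. Txnip, a glucose-induced gene that restrains thioredoxin, had 0.510% over 62 CpGs. Odc1, the first enzyme of polyamine synthesis and a classic Myc target, had 2.16% over 133 CpGs. H2afx, the histone variant marked at DNA breaks, had 4.68% over 137 CpGs, with 33.7% upstream and 0.240% in the core. Bag3, a co-chaperone, had 9.23%, and Rgs2, a brake on G protein signalling, had 1.63%. Cdkn2c, which encodes the CDK inhibitor p18, had 24.6% over 19 CpGs, with 65.8% upstream and 1.23% in the core. 6 sets around histone genes ran from 0.210 to 1.76%, on 7 to 41 reads in the least covered library. 6 of the 48 starts had a core of 1% or more, among them Tpi1, a glycolytic enzyme (8.38%), and the lincRNA gene Trp53cor1 (18.7%). The RefSeq start of Tpi1 lies 138 bp from the gene start used here, and the 13 CpGs of the set in its promoter window had 0.857%.

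Some protein-coding starts in the deeply read group were over 50%. Tnnc2 had 83.8% over 37 CpGs (79.2 to 87.4% by library), and Il1b had 83.5% over 15 CpGs (77.4 to 89.5%). Gnb3, a G protein subunit, had 58.3% over 29 CpGs (49.0 to 69.2%). Cdkn1a had 72.2% over 17 CpGs (66.7 to 84.1%), although its RNA was well detected. RefSeq lists another Cdkn1a start farther downstream (chr17:29093519-29093818, plus strand), which lies outside 1 kb. The 21 CpGs read in every library in that window had a level of 0.564% (0.00 to 3.28% by library, 1774 reads in all).

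The highest levels were at gene copies. Of the 10 sets with the highest level (at least 10 reads in every library), 8 belong to processed pseudogenes, with Gm16260 at 96.9%, Gm10916 at 94.0% and Gm11223 at 91.1%, and the others are n-R5s204 (89.8%) and Gm23451 (88.4%). Copies could be set beside their parent genes by name. Plk-ps1 had 85.5% over 26 CpGs, where Plk1 had 1.76%. Mrps36-ps1 and Mrps36-ps2 had 83.0% and 76.8%, where Mrps36, a mitochondrial protein gene, had 11.6%. Spcs2-ps had 84.0%, where the 9 CpGs shared by the starts of Xrra1 and Spcs2 had 0.556%. Copies of near-identical sequence can take reads from one another, and how reads with several matches were placed is not given in the sources used here.

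Ins1, 1 of the 2 mouse insulin genes, was the only 1 of 32 listed beta cell identity genes with CpGs in the set. Its 9 CpGs lie 436 to 642 bp downstream of the start and had a level of 23.5% over all libraries. The young SD libraries had 41.2%, 30.3%, 26.4% and 15.9%, and the young HFD libraries had 40.7%, 40.6%, 8.33% and 14.6%. The old SD libraries had 31.1%, 30.3%, 6.67% and 13.1%. The old HFD libraries had 34.0%, 14.6% and, for library 1, no methylated read among 26, which allows up to 11.5%. The spread within each group was larger than any difference between groups. Which other listed genes had CpGs in the set follows from the regions selected and read in every library, so the counts below are not a result. Of the 51 listed genes of cell cycle and growth control 12 had CpGs in the set, as had 1 of 26 unfolded protein and heat shock genes (Bag3) and 1 of 33 metabolic genes (Mlxipl). None of the 52 imprinted genes, 24 immediate early genes, 169 developmental transcription factors, 30 germline genes or 20 genes of the methylation machinery did, nor any of 13 genes of other endocrine cells, 26 of acinar and duct cells or 25 of blood, vessel, stroma and glia.

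The methylation libraries held 488262 to 799617 reads over CpGs, with a median coverage of 1 read per listed CpG, and 24591 to 45729 reads on the CpGs at gene starts. The CpGs shared by any pair of libraries were 25.4 to 32.8% of those in the library of the pair that listed fewer. RNA libraries held 68395276 to 79652561 counts. In old mice, SD libraries 2 and 4 and HFD libraries 1 and 4 were much closer to each other than other pairs in their counts, and each pair was summed as 1 sample, so that every RNA group has n = 3. The islet hormone genes Ins1, Ins2, Iapp, Gcg, Sst and Ppy were high in all RNA samples. Markers of other cells were present too, none at 0, and their sums differed within and between groups. The 3 acinar markers summed to 11190 to 25270 CPM (counts scaled to a common library size) in young SD, 1152 to 19462 in young HFD, 25692 to 78053 in old SD and 29636 to 68654 in old HFD. The 3 lymphocyte markers summed to 15.7 to 57.7, 6.88 to 13.6, 17.7 to 78.3 and 11.9 to 34.0 CPM, the highest being the summed old SD sample 2-4. Nothing in the labels says whether libraries of a group came from separate animals, so p-values measure the spread between these libraries.

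The effect of the diet in young mice was asked first. Pooled levels at gene starts were 19.3%, 20.6%, 18.96% and 21.0% in young SD and 20.2%, 21.2%, 20.2% and 19.6% in young HFD, and the groups overlapped. The means were 19.97% ± 0.980 and 20.3% ± 0.653 (SD, n = 4 each), a difference of +0.339 points (exact two-sided permutation test, p = 0.6, where 0.0286 is the smallest possible). Of 312 CpGs with at least 10 reads in all 8 libraries, 0 passed an adjusted p of 0.05 (quasi-binomial model, adjusted over 2809 CpGs tested in the genome, of which 0% passed), and 14 had an unadjusted p under 0.05. The smallest p was at a CpG at -496 bp from the Elovl4 start (chromosome 9, position 83806773), with 42.1% on SD and 18.1% on HFD (adjusted p = 0.803). Of 100 gene starts tested 0 passed (0%), and 3 had an unadjusted p under 0.05.

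Levels of single starts are pooled reads too, so they depend on which CpGs of a start a library read most. The part of this in the differences at single starts, here and below, was not tested. The smallest p among starts was at the lincRNA gene 9330179D12Rik. Its young SD libraries had 2.27%, 4.14%, 2.87% and 2.62%, and the young HFD libraries had 1.46%, 2.13%, 2.85% and 0.965%. The difference was -1.34 points (95% interval -2.52 to -0.158, adjusted p = 0.796), with overlapping groups. Elovl4, an elongase of very long fatty acids, had 15.6%, 10.5%, 9.55% and 14.6% in young SD and 11.4%, 8.33%, 10.9% and 7.35% in young HFD, a difference of -2.73 points (95% interval -5.29 to -0.172, adjusted p = 0.796). Plk1 differed by +0.893 points and Cdc20 by -1.92 points, with intervals that include 0. Over the 43 deeply read starts under 15%, 28 were higher on HFD, with a median difference of +0.180 points, and the 95% interval reached a median of 1.18 points to either side.

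In old mice the pooled levels were 17.9%, 17.3%, 20.2% and 22.3% on SD and 20.9%, 22.2% and 19.8% on HFD, and the groups overlapped. The means were 19.4% ± 2.27 (SD, n = 4) and 21.0% ± 1.22 (SD, n = 3), a difference of +1.55 points (exact permutation test, p = 0.371). The diet effects at the 2 ages differed by +1.21 points (exact permutation within each age, p = 0.461). None of 163 CpGs passed (quasi-binomial model, 1764 CpGs tested in the genome, 0% passed), and 5 had an unadjusted p under 0.05. The smallest p was at a CpG at -527 bp from the start of the microRNA gene Mir5626 (chromosome 9, position 70406280), with 78.6% on SD and 100% on HFD (adjusted p = 0.685). Of 101 starts 0 passed (0%), and 4 had an unadjusted p under 0.05.

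Mlxipl had the smallest p among starts in old mice. Its levels were 20.6%, 26.4%, 23.2% and 21.1% in old SD and 30.3%, 26% and 25.2% in old HFD, a difference of +3.97 points (95% interval 0.568 to 7.37, adjusted p = 0.983), and the groups overlapped. Kif20a had 0.537%, 1.47%, 1.4% and 2.56% in old SD and 2.32%, 2.75% and 2.78% in old HFD, a difference of +1.23 points (95% interval 0.132 to 2.34, adjusted p = 0.983). Brd8, a bromodomain gene that starts opposite Kif20a, shares most of these CpGs and had +1.1 points. Cdkn2c had 21.1%, 21.8%, 14.1% and 26.6% in old SD and 29.1%, 33.2% and 20.2% in old HFD, a difference of +7.86 points (95% interval 0.122 to 15.6, adjusted p = 0.983). Snx21, an endosomal sorting gene with 5 CpGs, had the largest difference, +13.5 points, with an interval from -2.60 to 29.7. A start-by-start test of the diet effect between the ages gave no adjusted p under 0.986 (exact permutation), and its smallest unadjusted p was 0.0780, at Il1bos, an antisense gene next to Il1b.

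Between young and old mice on the standard diet the pooled level differed by -0.544 points (exact permutation test, p = 0.657), and over both diets by +0.0614 points (exact permutation within each diet, p = 0.931). None of 239 CpGs passed (quasi-binomial model, 2217 tested in the genome, 0% passed), with 9 at an unadjusted p under 0.05. The smallest p was at a CpG at -289 bp from the Mlxipl start (chromosome 5, position 135106602), with 5.19% in young and 21.4% in old mice (adjusted p = 0.735). Of 102 starts 0 passed (0%), with 4 at an unadjusted p under 0.05. The processed pseudogene RP23-172K2.12 had 75%, 86.1%, 80.0% and 77.6% in young SD and 91.9%, 89.5%, 85.9% and 93.9% in old SD. The highest young library was just above the lowest old one, and the difference was +10.8 points (95% interval 3.14 to 18.5, adjusted p = 0.403). Cdk1 had 11.0%, 12.6%, 16.6% and 9.28% in young SD and 7.88%, 6.79%, 13.9% and 7.53% in old SD. Its difference was -3.89 points (95% interval -7.33 to -0.451, adjusted p = 0.724), with library 3 of old SD inside the young range. Cdkn2c was -7.17 points apart (95% interval -13.4 to -0.899, adjusted p = 0.724).

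The pooled level depended on which CpGs a library happened to read most. When every CpG was given the same weight in all libraries (its reads summed over all 15), the level of each library moved to between 19.6 and 20.4%. Group means were then 19.9% ± 0.0790 in young SD, 20.1% ± 0.243 in young HFD, 20.1% ± 0.158 in old SD (SD, n = 4 each) and 19.8% ± 0.208 in old HFD (SD, n = 3). The SD over libraries, 0.653 to 2.27 points by group with pooled reads, was 0.0790 to 0.243 points with these weights. With the same weights the old HFD libraries (19.6%, 19.95% and 19.9%) were all below the old SD libraries (20.1%, 20.1%, 20.4% and 20.1%), by 0.322 points in the mean, a direction opposite to that of the pooled reads. The permutation test gave the smallest p it can, 0.0286 (exact), or 0.0476 when adjusted over the 5 comparisons. Old SD libraries were all above young SD, with a difference of +0.243 points (exact p = 0.0286, adjusted 0.0476), again opposite to the pooled reads. The diet effect differed between the ages by -0.474 points (exact p = 0.0241, adjusted 0.0476). None of the 3 passed an adjusted p of 0.05 in any related setting, where the adjusted p depends on all 5 comparisons. Unadjusted, the exact p stayed at 0.0286, the smallest possible, for age on SD with every CpG counted equally. It did so too for the diet in old mice among protein-coding genes with the weights by reads. The other unadjusted p in these settings ran from 0.0461 to 0.143 (exact permutation). With every CpG counted equally the adjusted p was 0.238 for the diet in old mice, 0.143 for age on SD and 0.172 for diet by age (exact permutation). Among protein-coding genes alone, the weights by reads gave adjusted p of 0.115, 0.143 and 0.115, and among CpGs with 5 or more reads in all libraries 0.143, 0.238 and 0.143 (exact permutation). The directions were the same in these settings. Such weights were not applied to single starts, whose differences and intervals rest on pooled reads.

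**Figure D3:**
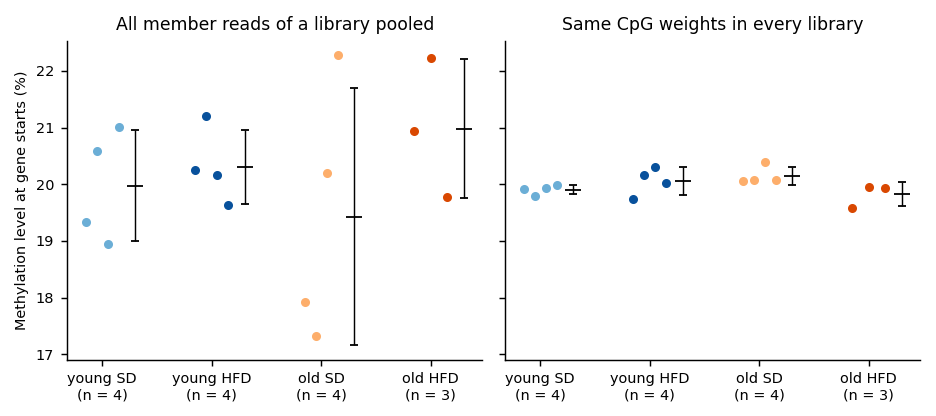
Methylation level at gene starts (y axis, percent) by group (x axis), with all reads of a library pooled (left) and with the same weight for each CpG in every library (right). Points are libraries, bars are mean ± SD, and the y axis does not start at 0. The spread narrows from between 17.3 and 22.3% on the left to between 19.6 and 20.4% on the right.

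RNA of the same genes was compared with their starts. Libraries of RNA and DNA were not matched sample by sample, so only group values can be set side by side. In young mice 70 genes with CpGs in the set had enough counts, and 1 passed an adjusted p of 0.05 (edgeR quasi-likelihood test over 16724 genes, of which 0.0299% passed, 0.0179% higher and 0.012% lower). This was H2afx, with 11.4, 11.9 and 11.8 CPM on SD and 18.7, 20.4 and 18.8 CPM on HFD. It rose by 0.72 log2 (SE 0.06, adjusted p = 0.0269), and the groups did not overlap. DESeq2 called 23 of 65, all higher, where it called 5.21% of all genes. When any 1 of the 6 samples was left out edgeR called 0, among these genes and among all genes, with 26 to 36 of these genes at an unadjusted p under 0.05. Cell division genes among them were higher on HFD without passing the edgeR threshold. The 12 listed genes of cell cycle and growth control had a median log2 difference of +1.05, with 11 higher and 0 past the threshold. All genes tested had a median of -0.0196 with 45.8% higher. Some markers of other cells separated the young groups too, while those of acinar cells, endothelium, stroma and duct overlapped. The 2 macrophage markers summed to 20.1 to 57.8 CPM on SD and 15.4 to 19.03 CPM on HFD, the 2 Schwann cell markers to 4.71 to 5.79 and 6.76 to 8.22 CPM, and the lymphocyte sums given above did not overlap either. Their part in the RNA differences was not tested.

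Cdk1 RNA was 2.14, 2.08 and 1.80 CPM in young SD and 6.18, 4.70 and 4.18 CPM in young HFD, a log2 difference of +1.32 (SE 0.19, edgeR adjusted p = 0.0920). Its start level was 12.5% on SD and 10.1% on HFD, a difference of -2.49 points (95% interval -5.45 to 0.460). Hmmr RNA differed by +1.37 log2 (SE 0.16, edgeR adjusted p = 0.0819), while its start differed by +0.263 points (95% interval -0.476 to 1.00). For Ccna2 the RNA difference was +1.18 log2 and the start difference +0.468 points (95% interval -0.988 to 1.92). For Rgs2 they were +1.46 log2 and -0.139 points (95% interval -0.976 to 0.698). Mki67 RNA was 14.1, 9.02 and 12.0 CPM on SD and 30.8, 17.3 and 22.7 CPM on HFD, and its start differed by +0.972 points (95% interval -0.303 to 2.25). Of 47 deeply read starts with RNA tested, 17 had an RNA difference of 1 log2 or more. Their start differences ran from -2.49 to +1.65 points, and none of their intervals reached beyond -5.45 or 3.97 points. RNA groups did not overlap at 35 of the 47, against 23.8% of all genes.

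**Figure D4:**
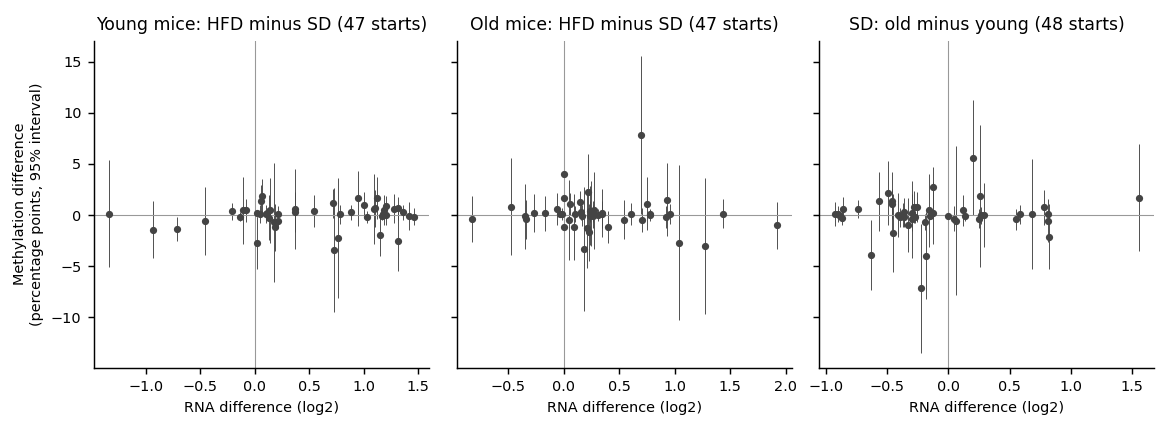
Difference in methylation level at the start (y axis, percentage points, with 95% interval) against the difference in RNA of the same gene (x axis, log2) at deeply read starts, for the diet in young mice (left), the diet in old mice (middle) and age on the standard diet (right). In young mice the points extend to +1.46 log2 on the right, with no start below -3.41 points on the y axis.

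In old mice 4 of 71 genes passed, 3 higher and 1 lower (edgeR, 4.48% of 16929 genes passed, 2.12% higher and 2.36% lower). Groups did not overlap at 17 of the 71, against 30.1% of all genes. Bag3 RNA was 35.6, 35.8 and 80.9 CPM on SD and 230, 197 and 152 CPM on HFD and rose by 1.92 log2 (SE 0.35, adjusted p = 0.0350). Its start had 9.04% on SD and 8.03% on HFD, a difference of -1.01 points (95% interval -3.28 to 1.26). Txnip RNA was 609, 535 and 648 CPM on SD and 1101, 1050 and 954 CPM on HFD. It rose by 0.78 log2 (SE 0.11, adjusted p = 0.0247), and its start was at 0.299 to 0.690% in every old library. Cdkn1a RNA was 32.1, 26.2 and 38.9 CPM on SD and 74.7, 71.9 and 54.8 CPM on HFD and rose by 1.04 log2 (SE 0.17, adjusted p = 0.0293). Its annotated start differed by -2.68 points (95% interval -10.3 to 4.93). Hist2h2be, a histone gene whose counts may be shared with near-identical copies, fell by 0.49 log2 (adjusted p = 0.0414). The 12 cell cycle and growth genes had a median of +0.27 log2, with 11 higher and 1 (Cdkn1a) past the threshold. In the old SD group the summed sample 2-4 stood apart, with 19.8 CPM of Mki67 against 2.06 and 3.27 in the others. Without it 7 genes passed, all higher (2.72% of all genes passed), and without SD sample 3 4 passed, all higher (1.28% of all genes). Without SD sample 1 or any 1 of the HFD samples 0 passed in edgeR, among these genes and among all genes, with 15 to 20 of these genes at an unadjusted p under 0.05. DESeq2 called 12 of 57 genes, where it called 15.2% of all genes. The 2 endothelial markers summed to 69.2 to 83.0 CPM on SD and 88.6 to 90.1 CPM on HFD, and the 2 Schwann cell markers to 5.48 to 6.03 and 4.78 to 5.44 CPM. Neither pair of ranges overlapped, while those of the acinar, lymphocyte, macrophage, stroma and duct markers did. The part of these cells in the RNA differences was not tested.

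RNA counts of young and old mice were deposited separately, so age cannot be told apart from any other difference between these data sets. With age on SD 10 of 72 genes passed (edgeR, 23.3% of 17124 genes passed), with groups that did not overlap at 30 of the 72, against 43.3% of all genes. Of the 10, 6 were higher in old mice (12.4% of all genes were called higher) and 4 lower (10.9%). Ccnd1 fell by 0.87 log2 (SE 0.10, adjusted p = 0.00287), with 205, 167 and 209 CPM in young SD and 111, 101.4 and 99.9 CPM in old SD, while its start differed by -0.245 points (95% interval -0.994 to 0.503). Txnip rose by 0.81 log2 (SE 0.10, adjusted p = 0.00324), Elovl4 by 0.82 (adjusted p = 0.0138) and Coil, the Cajal body protein coilin, by 0.91 (adjusted p = 0.0109). Brd8 fell by 0.37 (adjusted p = 0.0112) and Elovl1, another fatty acid elongase, by 0.46 (adjusted p = 0.00428). Cdk1 RNA differed by -0.63 log2 (SE 0.59, adjusted p = 0.484), and its old SD values of 0.526, 2.63 and 0.676 CPM were split by sample 2-4. Without that sample 24 of 74 genes passed, 18 of them lower in old mice (19.6% of all genes passed). Without young SD sample 3 6 passed (10.6% of all genes), and without old SD sample 3 5 passed (10.3%). DESeq2 called 18 of 64 genes, where it called 30.7% of all genes. The acinar sums given above did not overlap between young and old SD, while those of the other kinds of cells did. The part of these cells in the RNA differences was not tested.

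Detection of RNA went with the level at the start. Among genes whose starts had at least 20 reads over all libraries, 41 of 59 with a level under 10% passed the filter on low counts. Of those from 10 to 90%, 29 of 101 passed, and of those over 90%, 4 of 27. The kind of gene differed between these classes too, and no protein-coding gene was over 90%. The part of the kind of gene in the detection was not tested. Among protein-coding genes alone, 37 of 43 under 10% and 21 of 27 from 10 to 90% passed. The median RNA of these protein-coding genes, passing or not, was 3.79 CPM under 10% and 5.41 CPM from 10 to 90%. Neither the counts nor these medians are adjusted for gene length. The strongly methylated starts of Tnnc2 and Gnb3 belonged to genes with at most 0.238 CPM in any RNA sample, whereas Il1b reached 18.2 CPM and Cdkn1a 74.7 CPM.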

How the data were processed

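Methylation was read in 15 libraries by bisulfite sequencing of selected regions and RNA in 14 libraries. The deposited methylation files list, for each cytosine of a CpG, its coverage as a count and its methylation in percent, as the authors called them. The deposited RNA tables, separate for young and old mice, hold the authors' raw counts per gene. The submitters' processing notes name BSMAP, Trimmomatic, Picard 1.83, STAR 2.4.2a, featureCounts 1.4.3, bedtools, DESeq2 and build mm10. Strand setting, handling of reads with several matches and the kit of the methylation libraries are not given in the sources used here. The authors' comparison tables served only for gene positions, types and names.

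From these, reads of both strands of a CpG were added, and methylated reads were divided by all reads. Exact two-sided permutation tests compared the pooled levels of the libraries, adjusted over 5 comparisons. CpGs and gene starts with at least 10 reads in every library compared were tested by quasi-binomial models (R 4.3.3) with Benjamini-Hochberg adjustment over all tested, at 0.05. RNA was tested with edgeR 4.0.16 (TMM, quasi-likelihood, filter on low counts), with DESeq2 1.42.0 as an alternative. The models were tested on simulated data. Other steps used Python 3.11.15 with numpy 2.4.6, pandas 2.3.3, scipy 1.17.1 and matplotlib 3.10.9. RNA libraries whose counts differed by a scaled median chi-square under 5 (a limit chosen after the values were seen) were counted as 1 sample. RNA levels per gene length were planned but not computed, because no exon lengths were at hand.

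Members and the 12 gene lists were chosen with earlier results of these data known. Genes named are the starts and CpGs with the smallest p in each comparison, those with the highest coverage, those with the highest level and nearest 50%, and members of the lists. Cell division genes, copies beside their parents and the genes of the printed windows were also named after their values were seen. Alternatives changed the weighting of CpGs, the window, the coverage minimum, the class of genes, the count test and filter, the replicate block and the libraries included. Transcript-level RNA estimates and quality tables were not used here. Results of 2 gene starts are not reported here, and counts over all starts include them. The CpG content of all low promoter windows, with no minimum number of CpGs, was added after seeing the data.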

Additional observations from a re-analysis of the deposited data

Results flagged for a closer look

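Among 114 groups of 4 libraries checked, 6 held a library set apart from the other 3, and chance alone flags about 1 in 20. The check takes the gap relative to the range of the 4 libraries, so a gap of few points can be flagged. The Cdk1 start was at 13.9% in old SD library 3 and at 6.79 to 7.88% in the others. Il1bos was at 81.5% in young SD library 2 against 83.1 to 83.3%. AC122428.1, the microRNA gene in the H2afx start region, was at 2.04% in young HFD library 2 against 0.809 to 0.914%. The pseudogene Gm16260 was at 97.1% in young SD library 2, where the others were at 100%. The pseudogene Gm7278 was at 97.7% in young SD library 4 against 87.5 to 88.4%, and Gm12735 at 48.8% in the same library against 59.0 to 60.2%. With the same weight for each CpG in every library, the diet effect on the level at gene starts differed between old and young mice by -0.474 points (exact permutation within each age, p = 0.0241, adjusted 0.0476). The adjusted p was 0.172 with every CpG counted equally, 0.115 for protein-coding genes only and 0.143 for CpGs with 5 or more reads in all libraries (exact permutation).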

How the results depend on the processing

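The pooled level depended on the weight given to CpGs. With each CpG weighted equally, the difference was -0.278 points for the diet in old mice, +0.289 for age on SD and -0.394 for diet by age (exact permutation, adjusted p = 0.238, 0.143 and 0.172). With weights from the reads over all libraries these were -0.322, +0.243 and -0.474 (each adjusted p = 0.0476, exact permutation), and with protein-coding genes only, added after seeing the data, -0.345, +0.166 and -0.380 (0.115, 0.143 and 0.115), with -0.0242 for age over both diets. The same weights on CpGs with 5 or more reads in all libraries, also added, gave -0.469, +0.325 and -0.584 (0.143, 0.238 and 0.143). The 3 calls were thus made in only 1 of these 4 settings, the weights by reads over all CpGs. All 3 use the same old SD libraries, so they are not independent. Their adjusted p covers the comparisons within a setting but not the number of settings. With pooled reads, age over both diets was -0.124 with 5 or more reads and -0.0883 for protein-coding genes. Leaving out 1 library gave 0.000694 to 0.684 for the diet in young mice, 0.845 to 2.5 in old mice, -1.49 to 0.160 for age on SD, -0.413 to 0.413 over both diets and 0.506 to 2.16 for diet by age. Calls of CpGs and starts stayed at 0 without any 1 library. Genes whose RNA passed numbered 23 (young diet), 12 (old diet) and 18 (age) with DESeq2, and 3 in young mice with no filter on low counts. Leaving out 1 sample gave 0 to 0, 0 to 7 and 5 to 24. The labels do not say whether replicate numbers pair samples. Deviations from the group mean correlated between samples of the same number at -0.265 to 0.138 for methylation and -0.0465 to 0.161 for RNA, which cannot settle it. For RNA the replicate block gave 0, 0 and 5. The causes were not tested. Median coverage of 6 to 11 reads per CpG limits single CpGs, and the median half-width of the 95% interval at starts over 50% was 6.12, 7.91 and 7.11 points.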
